A study of Mus musculus with 17 samples.

Results

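Emcn, Cd34, Podxl, Clec14a, Cd93, Mcam, Stab1, Stab2, Lyve1 and Procr encode proteins of the endothelial cell surface. They were taken by name, as 10 of the 19937 genes measured on 17 Affymetrix mouse gene arrays. Each was read by 1 probe set, the block of probes that reports a transcript, and values are log2 signals, so that a difference of 1 is a doubling. The arrays came from pooled aorta-gonad-mesonephros (AGM) regions of E11.5 mouse embryos, whose strain and genotype the labels leave unstated. Every group was gated on CD31 and on the absence of CD45. The paper also excluded cells with the red cell marker Ter119, for cultured groups at the sort before culture. Kit+J and Kit-J cells were re-sorted by Kit after 2 h on OP9-Jag1 stroma, Kit+D and Kit-D cells after 2 h on OP9-Dll4 stroma, and Kit+ and Kit- cells were sorted fresh. Kit-J had 2 arrays, because 1 sample was left out by the authors for technical reasons, and each other group had 3. OP9 is a mouse bone marrow stromal line, here overexpressing 1 Notch ligand, and no culture on OP9 without an added ligand was among these arrays. The cultured cells shared a medium with SCF, VEGF, IL3 and other factors that the fresh cells did not meet. The 6 fresh arrays were deposited with older data, and a difference of cultured from fresh cells therefore cannot be told apart from one between array sets.

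One description line gives the opposite Kit population on 4 arrays, namely both Kit-J arrays and the third array of each OP9-Dll4 gate. Titles and sources were followed for these. Kit itself averaged 9.51 ± 0.059 in Kit+ and 8.21 ± 0.078 in Kit- cells (SD, n = 3 each). Among cultured cells of the Kit+ gate, Kit read 9.02 to 9.93 on OP9-Jag1 and 8.51 to 8.99 on OP9-Dll4. For the Kit- gate it read 8.50 and 9.08 on OP9-Jag1 and 7.05 to 8.02 on OP9-Dll4. The Kit-J arrays, both of them under the label conflict, thus spanned the Kit+D range, and Kit was called higher in Kit-J against Kit-D cells by 1.20 ± 0.29 (adjusted p = 0.0202). Of 8 endothelial markers, which include Cdh5 and Tek and none of the 10 genes, 6 were called lower in Kit+ than in Kit- cells. The others, Pecam1 and Erg, were lower without overlap of arrays but not called. Cdh5 read 11.04 at the median of the Kit- arrays. Markers of other cells stood apart on some OP9-Dll4 arrays. The mean of 12 macrophage and myeloid markers, relative to Kit- cells, was 1.90 on Kit+D replicate 1, against -1.17 and -1.85 on the other Kit+D arrays. Stromal and mural markers reached 1.24 on Kit-D replicate 3. All 10 genes had their highest Kit-D value on that array, as did 33.4% of all genes. A link between the markers and the 10 genes was not tested.

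Cd34 and podocalyxin (Podxl) are related sialomucins, heavily sialylated stalks that keep membranes apart and, when suitably glycosylated, carry ligands for L-selectin. Endomucin (Emcn) is a further endothelial sialomucin, found on capillaries and veins and known to limit leukocyte attachment. Clec14a and Cd93 belong to the same family of C-type lectin-like transmembrane proteins as thrombomodulin, and both bind the matrix protein multimerin-2 during angiogenesis. Mcam (CD146) is an immunoglobulin adhesion molecule that binds laminin-411. Stabilin-1 and stabilin-2 (Stab1, Stab2) are scavenger receptors, known from sinusoids and, for stabilin-1, also from macrophages. Lyve1 is a hyaluronan receptor of lymphatic vessels, embryonic endothelium and tissue macrophages. Procr is the endothelial protein C receptor, which presents protein C to thrombin-bound thrombomodulin and also marks blood stem cells.

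Windows of 250 bases before a start site were found for 7 of the 10 genes in the RefSeq promoter table (build GRCm38.p6). The table's start is not always the outer end of the annotated gene, and 4 of the 7 windows reach into it, by 92 bases for Procr, 96 for Stab2, 16 for Emcn and 10 for Stab1. They were searched on both strands for AGGAAG, a core of ETS factor sites, and TGGGAA, the core bound by the Notch cofactor RBPJ. AGGAAG was present in 4 of 7 (Cd34, Emcn, Stab1 and Stab2), against 29.5% of 32851 windows of that length, and TGGGAA in 0 of 7, against 21.6%. The zinc finger factor core AGATAA was in 0 of 7 windows, against 9.99% of all. The SOX factor core ACAATG was in 0 of 7, against 10.7%, and the E-box CACGTG in 0 of 7, against 6.02%. A match is a description of these letters only, and an empty window says nothing about a factor. In the Emcn window AGGAAG began 93 bases before the table's start and its reverse complement 174 bases before it. In the Stab2 window the reverse complement lay 40 bases before the table's start, within the annotated gene. The windows of 4 genes are printed in lower case, with AGGAAG or its reverse complement in capitals. Emcn had the widest range of the 10, Clec14a and Stab2 were the genes called for a difference between Kit gates in the stroma comparison, and Procr was the gene that was not called between stromas in Kit- cells.
Emcn (chr3:137340828-137341077, plus strand): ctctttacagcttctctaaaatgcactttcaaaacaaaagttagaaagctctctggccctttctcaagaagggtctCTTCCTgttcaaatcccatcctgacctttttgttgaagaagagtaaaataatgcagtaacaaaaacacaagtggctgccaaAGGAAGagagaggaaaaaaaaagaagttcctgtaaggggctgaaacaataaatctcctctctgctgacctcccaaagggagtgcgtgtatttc
Clec14a (chr12:58269259-58269508, minus strand): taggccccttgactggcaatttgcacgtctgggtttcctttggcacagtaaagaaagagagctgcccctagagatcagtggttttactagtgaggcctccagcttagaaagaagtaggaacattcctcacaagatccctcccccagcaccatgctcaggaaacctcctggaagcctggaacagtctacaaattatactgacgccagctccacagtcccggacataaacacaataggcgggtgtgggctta
Stab2 (chr10:87007943-87008192, minus strand): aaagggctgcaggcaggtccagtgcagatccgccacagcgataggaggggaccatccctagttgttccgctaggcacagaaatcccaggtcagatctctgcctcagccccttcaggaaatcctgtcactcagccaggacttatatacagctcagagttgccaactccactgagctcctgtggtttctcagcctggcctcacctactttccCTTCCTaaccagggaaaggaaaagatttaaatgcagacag
Procr (chr2:155750967-155751216, plus strand): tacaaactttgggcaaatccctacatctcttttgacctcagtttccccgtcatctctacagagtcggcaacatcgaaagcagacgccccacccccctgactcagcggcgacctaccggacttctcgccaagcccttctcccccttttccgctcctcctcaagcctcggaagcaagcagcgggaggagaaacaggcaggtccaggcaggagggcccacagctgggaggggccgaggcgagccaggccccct

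Most of the 10 genes were lower in Kit+ than in Kit- cells when both were fresh. Calls here mean an adjusted p below 0.05 from limma, fitted to all 17 arrays and adjusted across the 19937 genes. By that rule 7 of 10 were called lower, against 2.67% of all genes (3.23% in either direction), and Cd34, Lyve1 and Procr were not. The median difference of the 10 was -1.63, beside 0.065 over all genes. The Kit+ and Kit- arrays did not overlap for any of the 10, with Kit+ the lower each time, as for 10.5% of all genes. Markers of other cells were called in the same comparison. The erythroid genes Hba-x and Hbb-y, the stromal genes Pdgfra and Prrx1 and the platelet gene Ppbp were lower in Kit+, and Kit and Myb of the haematopoietic cluster list were higher. Their part in the result was not tested. In bulk samples fewer cells of a type and less RNA per cell cannot be told apart.

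On OP9-Jag1 the Kit- gate was lower for part of this set. In Kit-J against fresh Kit- cells 4 of 10 were called lower (Emcn, Clec14a, Cd93 and Mcam), against 1.89% of all genes (2.14% in either direction), with a median of -1.10 beside 0.085 over all genes. Arrays of 8 of 10 were lower in Kit-J without overlap, as for 12.8% of all genes. This comparison and that of Kit+ with Kit- share the Kit- arrays. The stromas were then set side by side in the Kit- gate. In Kit-J against Kit-D cells 9 of 10 were called lower, Procr being the exception, against 6.07% of all genes (9.37% in either direction), with a median of -1.98 beside 0.112 over all genes. For 9 of 10 the Kit-J arrays lay wholly below, as for 18.9% of all genes. In Kit-D against Kit- cells all 10 differences were positive (0.10 to 1.90) and 0 were called, against 0.171% of all genes, although 3 of 10 (2238 of all genes) had an unadjusted p under 0.05 and the arrays of 6 of 10 were higher without overlap, as for 12.4% of all genes. All 10 genes had their highest group mean in Kit-D, for Clec14a and Podxl by only 0.11 and 0.17 over Kit-.

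In the Kit+ gate fewer members were called between OP9-Jag1 and fresh cells and between stromas, and fewer of all genes were called there too. In Kit+J against Kit+ cells 0 of 10 were called, against 0.0201% of all genes, and Cd93 alone (1330 of all genes) had an unadjusted p under 0.05. Cd93 was also the 1 gene with no overlap, lower in Kit+J, as for 6.06% of all genes. In Kit+D against Kit+ cells all 10 differences were again positive and 0 were called, against 1.42% of all genes, with 4 of 10 (3386 of all genes) at an unadjusted p under 0.05 and 6 of 10 higher without overlap, as for 10.1% of all genes. In Kit+J against Kit+D cells 3 of 10 were called lower (Emcn, Cd93 and Lyve1), against 1.68% of all genes (2.25% in either direction), and 5 of 10 were lower without overlap, as for 8.32% of all genes. The gates were set side by side on each stroma too. In Kit+J against Kit-J cells 0 of 10 were called, against 0.0903% of all genes, with 3 of 10 (2133 of all genes) at an unadjusted p under 0.05 and 4 of 10 lower without overlap, as for 9.97% of all genes. In Kit+D against Kit-D cells 10 of 10 were called lower, against 6.62% of all genes (13.1% in either direction), and 9 of 10 were lower without overlap, as for 14.3% of all genes.

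**Figure D1:**
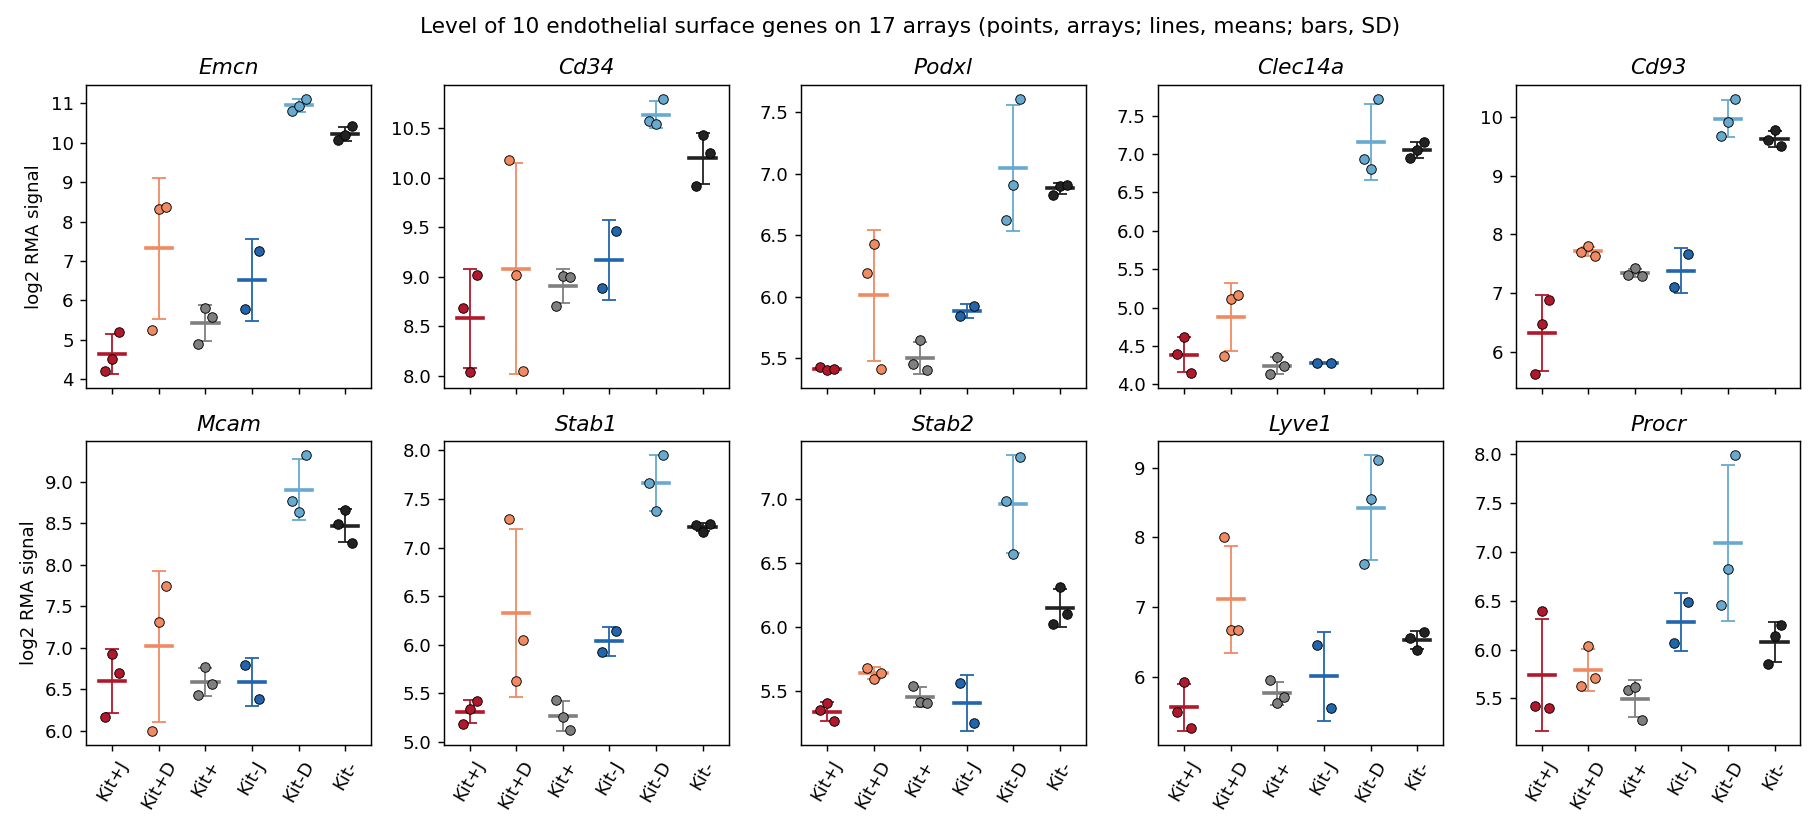
Log2 signal of each of the 10 genes (vertical axis, own scale per panel) on the 17 arrays, by group along the horizontal axis. Each point is 1 array, with the group mean as a line and the SD as a bar (n = 3, Kit-J n = 2). All 10 genes have their highest mean in Kit-D, narrowly so for Clec14a and Podxl. Emcn, Cd93 and Mcam in Kit-J lie far below Kit-D and Kit-.

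Of the 3 sialomucins Emcn had the largest differences. It read 4.19, 4.51 and 5.20 in Kit+J, 5.25, 8.33 and 8.37 in Kit+D, against 4.90, 5.80 and 5.57 in Kit+ cells. In the Kit- gate it read 5.77 and 7.24 in Kit-J, 10.80, 10.93 and 11.12 in Kit-D, against 10.07, 10.19 and 10.43 in fresh Kit- cells. No Kit-J array came near a Kit-D or Kit- array, and the Kit+D arrays split, with replicate 1 at the level of fresh Kit+ cells. Emcn differed by -4.81 ± 0.63 (SE) in Kit+ from Kit- cells (adjusted p = 0.000295), a 28-fold lower signal. In Kit-J it differed from Kit- by -3.73 ± 0.71 (adjusted p = 0.0105) and from Kit-D by -4.45 ± 0.71 (adjusted p = 0.00139), and no other of the 19937 genes had a more negative difference from Kit-D. Kit+J against Kit+D gave -2.68 ± 0.63 (adjusted p = 0.0397). Without Kit-J replicate 1 the difference of Kit-J from Kit- was -2.99 with an adjusted p of 0.197. The call between Kit+J and Kit+D was lost on leaving out any Kit+J array or Kit+D replicate 2 or 3 (adjusted p from 0.0568 to 0.15), and the adjusted p was 0.375 in a fit of those groups alone.

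Cd34 had the same highest and lowest groups as Emcn over a narrower span. It read 8.69, 8.04 and 9.02 in Kit+J, 10.18, 9.02 and 8.05 in Kit+D, against 8.71, 9.01 and 9.0 in Kit+ cells. It read 8.89 and 9.46 in Kit-J, 10.58, 10.54 and 10.80 in Kit-D, against 9.92, 10.43 and 10.25 in fresh Kit- cells. The Kit- gate arrays separated by stroma, while the 3 Kit+D arrays covered nearly the whole range of the Kit+ gate. Its difference between Kit+ and Kit- was -1.29 ± 0.39 (adjusted p = 0.102), and between Kit-J and Kit-D -1.46 ± 0.44 (adjusted p = 0.0489). That last call was lost on leaving out any of the 5 arrays (adjusted p from 0.0539 to 0.362). Podxl values were 5.40 to 5.43 for Kit+J cells, 5.41 to 6.43 for Kit+D cells and 5.40 to 5.65 for Kit+ cells. In the Kit- gate 5.84 to 5.92 was the span for Kit-J cells, 6.62 to 7.61 for Kit-D cells and 6.83 to 6.91 for fresh cells. The Kit-J arrays lay between fresh Kit+ and fresh Kit- arrays without touching either. Podxl differed by -1.38 ± 0.25 in Kit+ from Kit- (adjusted p = 0.00395) and differed by -1.17 ± 0.28 between Kit-J and Kit-D (adjusted p = 0.0174), with an adjusted p of 0.14 without Kit-J replicate 1 and 0.0649 without Kit-D replicate 3. Against fresh Kit-, Kit-J gave -1.0 ± 0.28 (adjusted p = 0.0877).

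The lectin-like pair were lower on OP9-Jag1 than on OP9-Dll4 or in fresh cells of the Kit- gate. Clec14a read 4.40, 4.61 and 4.15 in Kit+J, 4.37, 5.11 and 5.16 in Kit+D, against 4.13, 4.35 and 4.24 in Kit+ cells. It read 4.28 on both Kit-J arrays, 6.94, 6.81 and 7.72 in Kit-D, against 6.95, 7.05 and 7.16 in Kit- cells. The Kit-J arrays thus lay inside the range of fresh Kit+ cells. These low values are under the median of all values (5.29), and no detection call was used. Clec14a differed by -2.81 ± 0.24 between Kit+ and Kit- (adjusted p = 5.37e-06), by -2.77 ± 0.27 between Kit-J and Kit- (adjusted p = 7.34e-05) and by -2.88 ± 0.27 between Kit-J and Kit-D (adjusted p = 2.19e-05). Between Kit+J and Kit-J the difference was 0.11, with a 95% interval from -0.46 to 0.67.

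Cd93 read 5.62, 6.47 and 6.88 in Kit+J, 7.70, 7.80 and 7.64 in Kit+D, against 7.31, 7.43 and 7.29 in Kit+ cells. It read 7.11 and 7.66 in Kit-J, 9.68, 9.92 and 10.31 in Kit-D, against 9.60, 9.78 and 9.50 in fresh Kit- cells. Every Kit+J array lay below every other array of the Kit+ gate, and both Kit-J arrays lay below all Kit-D and Kit- arrays. Its differences were -2.29 ± 0.26 between Kit+ and Kit- (adjusted p = 7.47e-05), -2.24 ± 0.29 between Kit-J and Kit- (adjusted p = 0.000653) and -2.58 ± 0.29 between Kit-J and Kit-D (adjusted p = 9.61e-05). Kit+J against Kit+D gave -1.39 ± 0.26 (adjusted p = 0.0162, or 0.0636 without Kit+D replicate 2 and 0.281 in a fit of those groups alone), and Kit+J against fresh Kit+ -1.02 ± 0.26 (adjusted p = 0.309). For Clec14a and Cd93 the calls between Kit+ and Kit-, Kit-J and Kit-, Kit-J and Kit-D, and Kit+D and Kit-D were kept in every fit tried.

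Mcam read 6.17, 6.93 and 6.70 in Kit+J, 6.0, 7.31 and 7.75 in Kit+D, against 6.43, 6.77 and 6.56 in Kit+ cells. It read 6.79 and 6.38 in Kit-J, 8.77, 8.63 and 9.32 in Kit-D, against 8.49, 8.66 and 8.26 in fresh Kit- cells. As with Clec14a, the Kit-J arrays reached the level of fresh Kit+ cells. The difference was -1.89 ± 0.35 between Kit+ and Kit- (adjusted p = 0.00513), -1.89 ± 0.39 between Kit-J and Kit- (adjusted p = 0.0185) and -2.33 ± 0.39 between Kit-J and Kit-D (adjusted p = 0.00201). Without Kit- replicate 1, Kit- replicate 2 or either Kit-J array, the adjusted p of Kit-J against Kit- was 0.0575 to 0.0933, and with housekeeping scaling 0.0955. Between Kit+J and Kit+D Mcam differed by -0.42, with a 95% interval from -1.16 to 0.32.

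**Figure D2:**
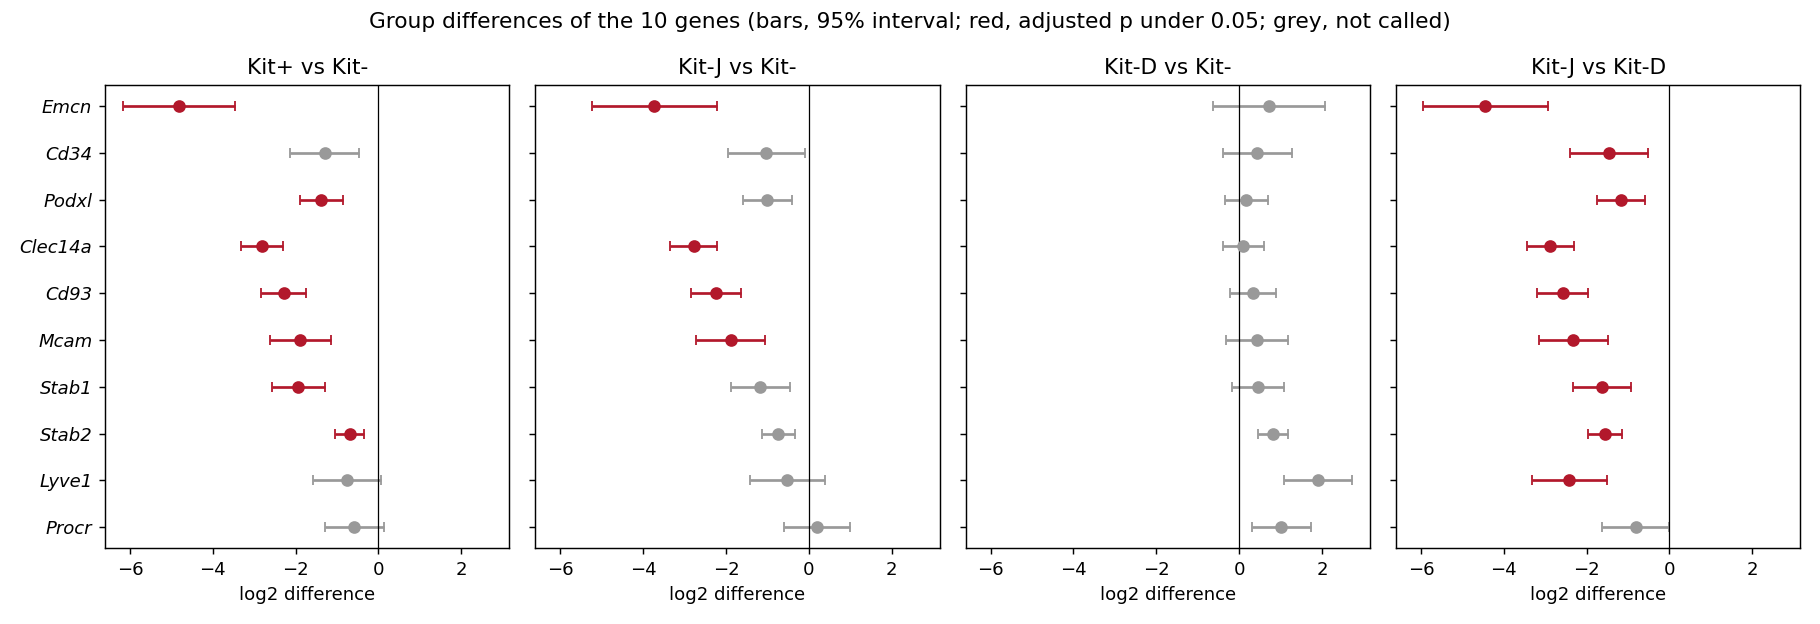
Log2 differences of the 10 genes in 4 comparisons (horizontal axis, first-named group minus second; vertical axis, genes), with 95% intervals. Red points were called and grey points were not. The Kit- gate on OP9-Jag1 has 4 red points against fresh Kit- cells and 9 against Kit-D, and Kit-D against fresh Kit- has 0.

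The scavenger and hyaluronan receptors were all called between the stromas in the Kit- gate, with OP9-Jag1 the lower. Stab1 read 5.18, 5.34 and 5.42 in Kit+J, 7.29, 5.63 and 6.05 in Kit+D, against 5.43, 5.26 and 5.12 in Kit+ cells. It read 5.93 and 6.14 in Kit-J, 7.66, 7.38 and 7.95 in Kit-D, against 7.23, 7.16 and 7.24 in fresh Kit- cells. Kit+D replicate 1 reached the fresh Kit- level, and the other Kit+D arrays stayed below it. Stab1 differed by -1.94 ± 0.30 between Kit+ and Kit- (adjusted p = 0.00119) and by -1.63 ± 0.33 between Kit-J and Kit-D (adjusted p = 0.00795, or 0.0948 without Kit-J replicate 1). Against fresh Kit- cells Kit-J gave -1.18 ± 0.33 (adjusted p = 0.10).

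Stab2 values were 5.26 to 5.40 for Kit+J cells, 5.59 to 5.68 for Kit+D cells and 5.40 to 5.54 for Kit+ cells. In the Kit- gate 5.25 to 5.56 was the span for Kit-J cells, 6.57 to 7.33 for Kit-D cells and 6.02 to 6.31 for fresh cells. Kit-D stood above all other groups array by array. Stab2 differed by -0.70 ± 0.17 in Kit+ from Kit- (adjusted p = 0.0342), a call lost on leaving out any of the 6 arrays (adjusted p from 0.0631 to 0.155) and with housekeeping scaling (0.206). The difference of Kit-J from Kit-D was -1.56 ± 0.19 (adjusted p = 0.000168). Kit-D against Kit- gave 0.81 ± 0.17 (adjusted p = 0.0594, or 0.0311 without Kit-D replicate 2).

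Lyve1 had the largest difference of the 10 between OP9-Dll4 and fresh cells of the Kit- gate. It read 5.50, 5.93 and 5.26 in Kit+J, 8.0, 6.67 and 6.67 in Kit+D, against 5.95, 5.63 and 5.71 in Kit+ cells. It read 6.46 and 5.55 in Kit-J, 7.62, 8.55 and 9.11 in Kit-D, against 6.56, 6.38 and 6.64 in fresh Kit- cells. All 3 Kit+D arrays stood above all fresh arrays, of Kit- cells too. Kit-D against Kit- gave 1.90 ± 0.38 (adjusted p = 0.0563, or 0.0214 without Kit-D replicate 1), a 3.74-fold difference that missed the threshold. Between Kit-J and Kit-D Lyve1 differed by -2.42 ± 0.43 (adjusted p = 0.003). Between Kit+J and Kit+D it differed by -1.56 ± 0.38 (adjusted p = 0.0488), a call kept only without Kit+D replicate 3 when arrays were left out singly (otherwise 0.0697 to 0.124). Lyve1 was not called between Kit+ and Kit- (-0.76 ± 0.38, adjusted p = 0.423) or between Kit-J and Kit- (-0.52 ± 0.43, adjusted p = 0.626).

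Procr was not called between Kit-J and either other Kit- gate group. It read 5.42, 6.4 and 5.40 in Kit+J, 5.63, 6.04 and 5.71 in Kit+D, against 5.59, 5.62 and 5.28 in Kit+ cells. It read 6.07 and 6.49 in Kit-J, 6.46, 6.83 and 7.99 in Kit-D, against 5.85, 6.14 and 6.25 in fresh Kit- cells. The Kit-J arrays overlapped both Kit-D and Kit- arrays. Kit-J differed from Kit- by 0.20, with a 95% interval from -0.6 to 1.0, and from Kit-D by -0.81 ± 0.38 (adjusted p = 0.176). Procr was the only member with a positive difference between Kit-J and Kit-. Replicate 3 (7.99) raised the Kit-D mean, and the other Kit-D arrays (6.46 and 6.83) also lay above every fresh Kit- array. Kit-D against Kit- gave 1.02 ± 0.34 (adjusted p = 0.259), and 0.57 at the lowest over the fits tried.

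In the order of group means Kit-D stood first for all 10 genes. For Clec14a and Podxl it led fresh Kit- cells by 0.11 and 0.17, with overlapping arrays. Over the fits tried, the lowest differences of Kit-D from Kit- were -0.18 for Clec14a and -0.11 for Podxl. Fresh Kit- cells were next for all but Lyve1, where Kit+D came between them, and Procr, where Kit-J did. The bottom place went to Kit+J for 6 genes, Kit+ for 3 and Kit-J for 1 (Mcam). For Mcam the means of Kit+J, Kit+ and Kit-J were 6.60, 6.59 and 6.58, far closer than their SDs of 0.39, 0.17 and 0.29. The Kit-J, Kit+ and Kit+J means of Clec14a lay within 4.24 to 4.39, and those of Stab2 within 5.33 to 5.45, again with overlapping arrays. For Emcn Kit-J averaged 6.50 ± 1.0 (SD, n = 2) and Kit+ 5.42 ± 0.47 (n = 3), and their arrays overlapped, at 5.77 and 5.80.

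Whether the stromas differed more in one gate than in the other was tested as a difference of differences, Kit-J minus Kit-D less Kit+J minus Kit+D. All 10 values were negative (median -1.08, beside 0.065 over all genes), and 2 of 10 were called, against 1.36% of all genes called lower (1.98% in either direction). Clec14a gave -2.39 ± 0.35 (adjusted p = 0.00648) and Stab2 -1.25 ± 0.25 (adjusted p = 0.0237). For both, the Kit+J arrays (4.15 to 4.61 for Clec14a and 5.26 to 5.40 for Stab2) lay close to the lowest value on any array (4.13 and 5.25). A smaller stroma difference in the Kit+ gate and one limited by low signal there cannot be told apart. With arrays scaled on housekeeping genes the adjusted p was 0.056 for Clec14a and 0.293 for Stab2. The Stab2 call was also lost without Kit-J replicate 1 (0.0523) or Kit-D replicate 3 (0.0543). Emcn gave -1.76 ± 0.95 (adjusted p = 0.374), Cd93 -1.19 ± 0.39 (adjusted p = 0.134, or 0.0232 without Kit+J replicate 1) and Mcam -1.91 ± 0.52 (adjusted p = 0.0764, or 0.0207 without Kit+D replicate 3). Stab1 gave -0.62 ± 0.45 (adjusted p = 0.525, or 0.0421 without Kit+D replicate 1). In a fit of the 4 cultured groups alone the adjusted p was 0.0591 for Clec14a and 0.106 for Stab2.

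For OP9-Jag1 against fresh cells the difference between gates was called for Clec14a alone, at -2.92 ± 0.35 (adjusted p = 0.00213), against 0.557% of all genes called lower (0.582% in either direction). This call was kept in every fit tried. Fresh Kit+ cells already read 4.13 to 4.35 for Clec14a, which includes its lowest value on any array. A smaller culture difference in the Kit+ gate and one limited by low signal there cannot be told apart in any of these fits. Cd93 gave -1.22 ± 0.39 (adjusted p = 0.261, or 0.0323 without Kit+J replicate 1). For OP9-Dll4 against fresh cells the difference between gates was called for 0 of 10 and for 0 of all genes (0%), with 1 of 10 and 1790 genes at an unadjusted p under 0.05.

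**Figure D3:**
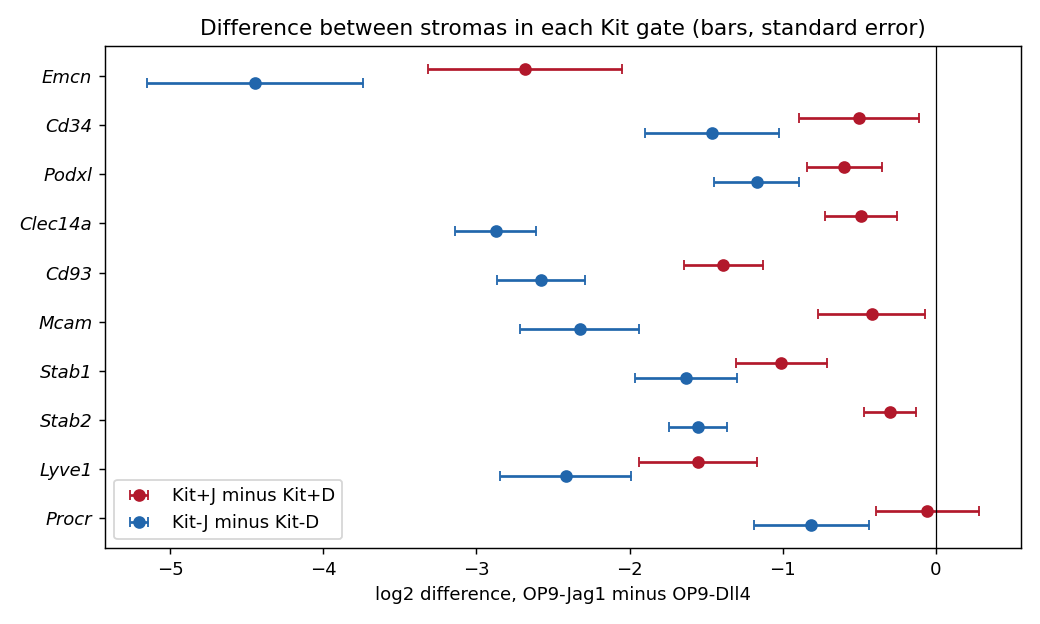
Log2 difference of OP9-Jag1 minus OP9-Dll4 cultures (horizontal axis) for each gene (vertical axis), in red for the Kit+ gate and in blue for the Kit- gate, with standard errors. Clec14a shows -0.49 in the Kit+ gate and -2.88 in the Kit- gate, and Procr -0.06 and -0.81.

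On OP9-Dll4 all 10 genes were lower in Kit+D than in Kit-D in the fit of all arrays. Emcn differed by -3.63 ± 0.63 (adjusted p = 0.00179), Clec14a by -2.28 ± 0.24 (adjusted p = 3.64e-05), Cd93 by -2.26 ± 0.26 (adjusted p = 7.36e-05), Mcam by -1.89 ± 0.35 (adjusted p = 0.00268) and Stab2 by -1.32 ± 0.17 (adjusted p = 0.000184) between Kit+D and Kit-D. The other 5 lay between -1.04 and -1.56. Fitted on the OP9-Dll4 arrays alone, with the replicate number as a block, 5 of 10 were called. Cd34 (adjusted p = 0.0884), Podxl (0.153), Stab1 (0.0675), Lyve1 (0.189) and Procr (0.0736) were not. Without the block that fit called 4 of 10, and Mcam (0.0581) was lost as well. Lyve1 had overlapping arrays and an adjusted p of 0.0359, or 0.0508 with the replicate number as a block in the fit of all arrays. Without Kit-D replicate 3 the calls of Cd34 (0.0617), Podxl (0.0595), Lyve1 (0.159) and Procr (0.0822) were lost. Lyve1 was further lost without Kit-D replicate 2 (0.105) or Kit+D replicate 2 (0.141) or 3 (0.11), and Cd34 without Kit+D replicate 2 (0.055) or 3 (0.0509).

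The Kit+D arrays differed in the markers of other cells and of endothelium. The mean of 8 endothelial markers was -2.57 on replicate 1, against -1.85 and -1.87 on the other Kit+D arrays. On replicate 1, where the myeloid mean was 1.90, Stab1 (7.29), Lyve1 (8.0) and Cd34 (10.18) were at their highest of the group, and Emcn (5.25), Clec14a (4.37) and Mcam (6.0) at their lowest. Csf1r, the receptor for macrophage colony-stimulating factor, read 8.56 there and 4.88 and 4.57 on the other Kit+D arrays. Mrc1, the macrophage mannose receptor, read 9.46 there and 4.04 and 3.36 on the others. The summed log2 level of the 12 myeloid markers was 67.1 to 71.9 for Kit+J cells, 56.4 to 101.4 for Kit+D cells and 71.1 to 73.8 for Kit+ cells. In the Kit- gate it was 73.3 to 76.6 for Kit-J cells, 58.0 to 86.1 for Kit-D cells and 74.6 to 85 for fresh cells. Of the 12 markers 0 were called between Kit+J and Kit+D or between Kit-J and Kit-D. Their means were nevertheless -0.44 and -0.17 on the Kit-J arrays, against 0.62, -1.67 and -1.72 on Kit-D replicates 1, 2 and 3. The lack of calls therefore does not show a like myeloid content. Within Kit+D the germ cell markers ran opposite to the myeloid ones, with means of -1.77 on replicate 1 and 0.93 and 1.5 on the others. The stromal and mural mean was 0.63 on replicate 3, beside -1.21 and -0.85. Mgp (9.75) and Acta2 (9.38) were high there, while Pdgfra (5.11) and Rgs5 (4.16) lay below every fresh Kit- array. The erythroid genes Hba-x and Hbb-y were called between Kit+D and Kit+ and between Kit+J and Kit+D, with Kit+D the higher both times. The part of these markers in the Kit+D values was not tested. In Kit-D the 2 arrays with the highest Lyve1 (8.55 and 9.11) were those with the lowest myeloid means (-1.67 and -1.72). The part of any marker list in the Kit-D values was not tested either. Without Kit+D replicate 1, Emcn in Kit+D against Kit+ had a difference of 2.93 and an adjusted p of 0.00411, against 1.89 ± 0.63 and 0.143 with it.

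Primordial germ cells carry CD31 and Kit and pass through this region, and their markers differed between stromas. In Kit-J against Kit-D cells 5 of these 8 markers were called higher, among them Pou5f1 and Nanog, and their mean relative to Kit- was 0.67 to 1.02 on the Kit-J arrays and -2.15 to -0.82 on the Kit-D arrays. Of the erythroid markers 3 of 5 were called lower on OP9-Jag1, with means of -1.96 and -1.61 against -1.0 to 0.80. Of the stromal and mural markers 2 of 8 were called lower, with means of -0.76 and -0.54 against -0.15 to 1.24. Of the haematopoietic cluster markers 2 of 6 (Kit and Myb) were called higher, with means of 0.35 and 0.59 against -0.69 to 0.05. The epithelial gene Epcam was called higher and the platelet gene Ppbp lower. Of the myeloid markers 0 of 12 were called, with means of -0.44 and -0.17 against 0.62, -1.67 and -1.72. In fresh Kit+ cells the germ cell means were 0.74 to 1.06 and the erythroid means -2.04 to -1.86. The stromal and mural means there were -1.12 to -0.96 and the cluster means 0.62 to 0.72. Kit-J means overlapped those of fresh Kit+ cells for the germ cell and erythroid lists, but not for the stromal or cluster lists. The part of all these markers in the differences of the 10 genes was not tested.

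**Figure D4:**
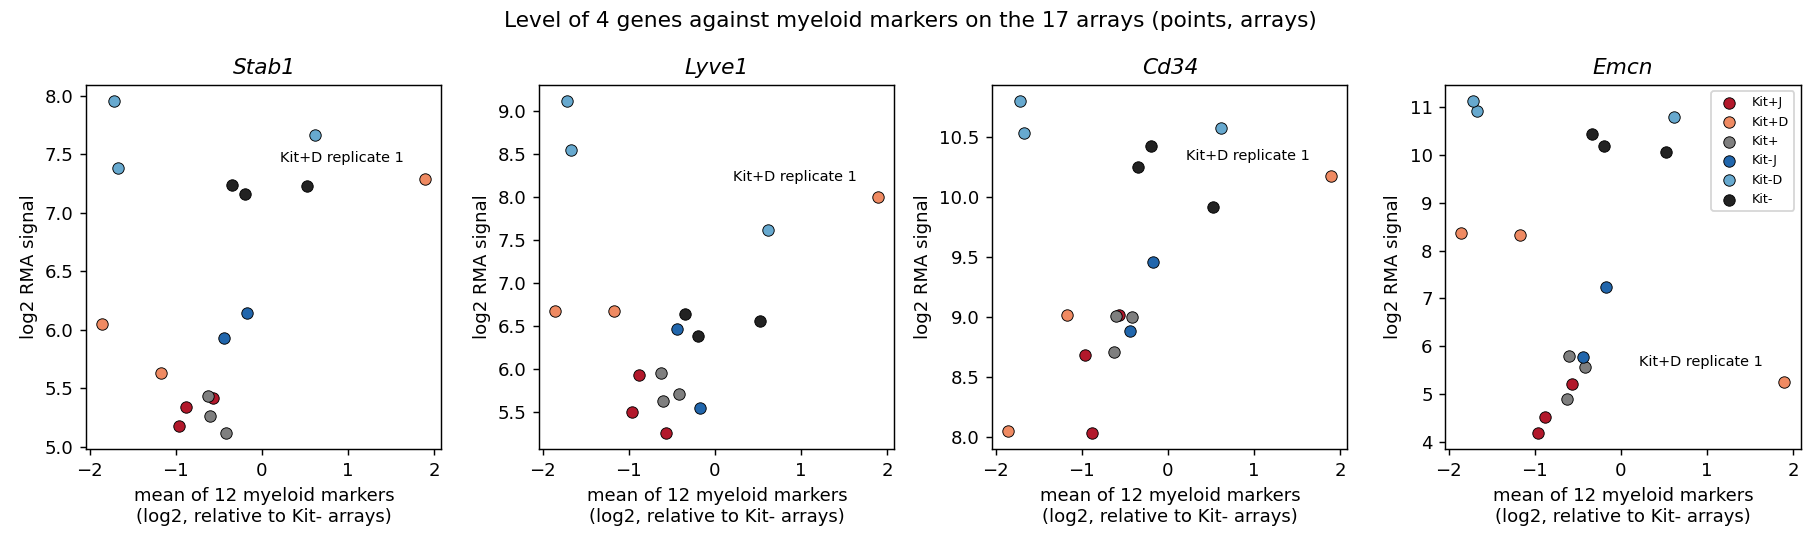
Log2 signal of Stab1, Lyve1, Cd34 and Emcn (vertical axes) against the mean log2 level of 12 myeloid markers relative to Kit- arrays (horizontal axis), 1 point per array, coloured by group. Kit+D replicate 1 lies at 1.90 on the marker axis, with high Stab1, Lyve1 and Cd34 and low Emcn. The 2 Kit-D arrays with the highest Lyve1 lie at -1.67 and -1.72.

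Partners and relatives of the 10 genes were counted too. Their counts stand beside 6.07% of all genes called lower between Kit-J and Kit-D, 1.89% between Kit-J and Kit-, 2.67% between Kit+ and Kit- and 1.68% between Kit+J and Kit+D. In a list of 8 genes around Clec14a and Cd93, 4 were called lower in Kit-J against Kit-D cells and 2 in Kit-J than in Kit- (median differences -1.53 and -0.93). Mmrn2, the multimerin that both lectins bind, gave -2.46 ± 0.43 (adjusted p = 0.00273) between Kit-J and Kit-D and -1.98 ± 0.43 (adjusted p = 0.0259) between Kit-J and Kit-. Egfl7, a secreted endothelial factor, gave -1.84 ± 0.24 (adjusted p = 0.000298) and -1.25 ± 0.24 (adjusted p = 0.0118), and was the 1 gene of this list called between Kit+J and Kit+D (-0.99 ± 0.22, adjusted p = 0.0296). Mmrn1 gave -2.46 ± 0.43 (adjusted p = 0.00261) between Kit-J and Kit-D.

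Among 15 immunoglobulin adhesion molecules and laminin genes beside Mcam, 5 were called lower in Kit+ than in Kit-, 2 in Kit-J than in Kit- and 3 in Kit-J than in Kit-D. Lama4, a chain of the laminin that Mcam binds, differed by -4.01 ± 0.40 (adjusted p = 2.55e-05) between Kit+ and Kit- and by -3.27 ± 0.44 (adjusted p = 0.000421) between Kit-J and Kit-D. Esam, a junctional adhesion molecule, gave -2.37 ± 0.31 (adjusted p = 0.00028) between Kit-J and Kit-D. Of 19 protein C and coagulation genes, 5 were called lower in Kit-J against Kit-D cells. Tfpi, an inhibitor of the start of coagulation, gave -1.71 ± 0.22 (adjusted p = 0.000286), Vwf, which carries factor VIII and tethers platelets to the vessel wall, -1.22 ± 0.20 (adjusted p = 0.00192), and Thbd, the thrombomodulin that works with Procr, -2.04 ± 0.35 (adjusted p = 0.00265). Procr itself was not called there.

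The remaining lists held scavengers, scaffolds and glycosylation enzymes. Of 19 further scavenger and hyaluronan genes, 1 was called lower in Kit-J than in Kit-, Colec12 (-1.72 ± 0.40, adjusted p = 0.0373), a scavenger lectin, and 4 in Kit-J than in Kit-D, among them Cd36 (-3.36 ± 0.70, adjusted p = 0.00865), a fatty acid and thrombospondin receptor, Colec12 and Hyal2. Of 11 further sialomucins and cytoplasmic partners, 3 were called between Kit-J and Kit-D. Slc9a3r2, a scaffold that binds podocalyxin, gave -0.71 ± 0.18 (adjusted p = 0.0279) and the membrane-cytoskeleton linker Rdx -1.09 ± 0.24 (adjusted p = 0.013), whereas Slc9a3r1, a paralogous scaffold, was higher by 1.79 ± 0.32 (adjusted p = 0.0035). Of 15 selectin and sialomucin glycosylation genes, 1 was called lower, the sulphotransferase Chst2 (-0.75 ± 0.22, adjusted p = 0.0459), a share near that of all genes. In 35 general endothelial genes, none of them a member, 29 were called lower in Kit-J against Kit-D cells (median -2.24). For Kit-J against Kit- it was 22 (median -1.67) and for Kit+J against Kit+D 4 (median -0.64). Between the gates, 29 were called lower in Kit+ than in Kit- (median -2.15). On OP9-Dll4 34 were called lower in Kit+D than in Kit-D (median -2.02), against 6.62% of all genes.

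Likeness of pattern was measured as the root mean square difference of log2 values, each gene centred on its own mean, over the 17 arrays. The nearest genes to Emcn were Tmem255a (0.46), Sparcl1 (0.55) and the cadherin Cdh5 (0.59), against a median of 2.52 over 7786 genes with a mean log2 signal of at least 6. Tmem255a averaged 6.98 ± 1.1 in Kit-J, 10.58 ± 0.23 in Kit-D and 10.93 ± 0.068 in Kit- (SD). Clec14a was nearest to Mmp2 (0.26), a matrix protease, and Cd93 to Heg1 (0.33), an endothelial junction receptor. Mcam was nearest to Col4a1 (0.27), a basement membrane collagen, and Podxl to Icam2 (0.21), a leukocyte adhesion receptor. Stab1 was nearest to Atf3 (0.28), a transcription factor of the stress response, and Lyve1 to Upp1 (0.47) and Hbegf (0.48). Cd34 was nearest to Zfp362 (0.29), Stab2 to Bcar1 (0.23) and Procr to Fam174b (0.29). The median distance to all genes was 2.52 for Emcn only. For the other members it ran from 0.70 (Stab2) to 1.40 (Cd93), and was 1.12 for Lyve1. Distances of different members therefore cannot be ranked against each other. Within the set Clec14a lay closest to Mcam (0.42), Cd93 to Clec14a (0.52), Podxl to Stab2 (0.36) and Lyve1 to Stab1 (0.62).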

How the data were processed

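Transcripts were measured on 17 Affymetrix Mouse Gene 1.0 ST arrays. The deposited values are log2 signals from the authors' RMA (named in the submitters' processing notes, version not given), that is background-corrected, quantile-normalised and summarised per probe set. According to the methods, replicates were independent sorts and nanograms of RNA were amplified, which may compress differences. Values ran from 1.24 to 13.58, and array medians from 5.22 to 5.38. The number of arrays limits the precision. Of 34760 probe sets, 21640 had 1 symbol in the platform annotation, 1321 had several and 11799 none. Single-symbol probe sets were used, 21553 matched RefSeq by Entrez number, and the brightest by mean stood for each of 19937 genes. Contrasts were taken from 1 limma fit (3.58.1, R 4.3.3) of 6 group means, with empirical Bayes variances and p-values adjusted by Benjamini-Hochberg across all genes, because the paper names no test for these arrays. The script was tested on simulated data.

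The members and gene lists were chosen with earlier results of these data known. The genes named were the members, up to 3 called genes per list and comparison by adjusted p, and the 3 genes of nearest pattern. Marker genes named on single arrays were picked after their values were seen. In the OP9-Dll4 groups, deviations from the group mean correlated between gates for each replicate number (r from 0.179 to 0.462, every pair over 0.1). According to the methods, both Kit gates were recovered from each culture condition. Labels and paper do not state whether arrays with the same replicate number shared a culture. The reported contrasts have no block, and fits with the replicate number as a block were alternatives. Alternatives were a fit of the compared groups only, a trended robust prior, removal of dim genes (under 5 in every group), housekeeping scaling, repeated quantile normalisation, array weights, other probe set rules, a minimum difference of 1, a replicate block and leaving out each array. Plots used matplotlib 3.10.9 under Python 3.11.15.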

Additional observations from a re-analysis of the deposited data

Results flagged for a closer look

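Effects that differed between the Kit gates by the test of the difference itself were picked out for 3 results. The difference between OP9-Jag1 and OP9-Dll4 was the more negative in the Kit- gate for Clec14a (-2.39 ± 0.35, adjusted p = 0.00648, limma) and for Stab2 (-1.25 ± 0.25, adjusted p = 0.0237). The difference between OP9-Jag1 culture and fresh cells was the more negative in the Kit- gate for Clec14a (-2.92 ± 0.35, adjusted p = 0.00213). The Kit+J arrays read 4.15 to 4.61 for Clec14a and 5.26 to 5.40 for Stab2, and the fresh Kit+ arrays 4.13 to 4.35 for Clec14a. The lowest values on any array were 4.13 for Clec14a and 5.25 for Stab2. A smaller difference in the Kit+ gate and one limited by low signal there cannot be told apart.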

How the results depend on the processing

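Of the gene values recomputed under the alternatives, 2022 kept their side of the threshold, 80 lost a call, 28 gained one and 0 called values changed sign. Fitting only the groups compared called 0 of the 10 genes in Kit+J against Kit+D (2 of all genes, against 449 in the fit of all arrays), 4 in Kit+D against Kit-D (1321 against 2615), 0 in the difference of stroma effects between gates (44 against 395) and 4 in the difference of OP9-Jag1 culture effects (175 against 116). Housekeeping scaling called 1 (Stab1) in Kit+D against Kit+ and 0 in the difference of stroma effects. It moved the median of all genes by 0.14 in Kit-J against Kit-, 0.15 in Kit+D against Kit+, -0.12 in Kit+J against Kit-J and 0.13 in the difference of stroma effects. Array weights called 2 in Kit-D against Kit- (Stab2 and Lyve1; 780 of all genes, against 34), 1 in Kit+D against Kit+ (Emcn; 1075 against 283) and 1 in the difference of stroma effects (Clec14a; 161 against 395). Leaving out dim genes called 1 in Kit-D against Kit- (Lyve1). Leaving out the third array of both OP9-Dll4 gates and the first of Kit+D, a set chosen after seeing the data, left 1 Kit+D array, whose spread was taken from the other groups. That fit gave 2 in Kit+D against Kit+ (156 of all genes) and 1 in the difference of stroma effects (165), and nothing is read from these calls.

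With the replicate block 9 of 10 were called in Kit+D against Kit-D (2446 genes in all, against 2615 without it), 6 in Kit+ against Kit-, 8 in Kit-J against Kit-D and 2 in Kit+J against Kit+D. The genes lost there were Lyve1, Stab2, Cd34 and Lyve1 in that order. In no other pair of groups did every replicate number correlate over 0.1 (Kit+J with Kit-J, r of -0.263 and -0.114). This does not show that same-numbered arrays came from separate cultures or sorts. OP9-Dll4 arrays alone with the replicate block, a fit chosen after the data were seen, called 5 in Kit+D against Kit-D (1345 of all genes).

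Leaving out 1 array at a time gave 6 to 6 genes in Kit+ against Kit-, 2 to 4 in Kit-J against Kit-, 0 to 1 in Kit-D against Kit-, 6 to 8 in Kit-J against Kit-D, 0 to 0 in Kit+J against Kit+, 0 to 1 in Kit+D against Kit+, 1 to 3 in Kit+J against Kit+D, 0 to 0 in Kit+J against Kit-J and 6 to 10 in Kit+D against Kit-D. It gave 1 to 3 in the difference of stroma effects, 1 to 2 in that of OP9-Jag1 culture effects and 0 to 0 in that of OP9-Dll4 culture effects. Where 1 Kit-J array was left, its spread was taken from the rest. The cause of these changes was not tested. No detection call was used, which limits what low signals, such as those of Clec14a in Kit+ and Kit-J cells, can show.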
